A study of Drosophila melanogaster with 3 samples.

Results

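The genes described here were 10 regulators of fly blood cells and of JAK/STAT signalling, taken by name from the 13945 protein-coding genes of the annotation. They were serpent (srp), lozenge (lz), glial cells missing (gcm), gcm2, knot (kn), Pvr, zfh1, Stat92E, hopscotch (hop) and domeless (dome). The data were peaks from ChIP-seq, in which chromatin precipitated with an antibody is sequenced, for the forkhead protein Jumeau in whole Drosophila melanogaster embryos of the strain jumu-MiMIC-GFP, with the sexes pooled, collected from 0 to 24 hours of age. These embryos carried an eGFP exon placed in an intron of jumu, which makes a fusion protein, and the chromatin was precipitated with an antibody against GFP. There was 1 group of 3 biological replicates. The authors' lists were called with a control alignment, but no control sample was analysed here. Antibody background and open promoters were thus not separated here from binding of the protein. Whole embryos mix all cell types and all embryonic stages, and blood cells are a small part of them, so a peak does not say in which cells it arose.

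Fly blood cells, the hemocytes, arise in the embryonic head mesoderm and later in the lymph gland. The GATA factor srp specifies them, gcm and gcm2 direct most of them to the plasmatocyte fate, and the Runx factor lz directs others to the crystal cell fate. The EBF-type factor kn, also called collier, acts in the niche of the lymph gland and in lamellocyte formation, the receptor tyrosine kinase Pvr supports hemocyte survival and migration, and the zinc-finger homeodomain protein zfh1 acts in mesoderm, heart and blood cells. In the JAK/STAT pathway, unpaired ligands bind the receptor dome, the kinase hop phosphorylates the transcription factor Stat92E, and Stat92E enters the nucleus to activate its targets. Jumeau has itself been studied in the lymph gland and in circulating hemocytes as well as in heart and nervous system.

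Of the 10 genes, 6 had a summit of the optimal list inside the gene or within 5 kb of it: zfh1, dome, gcm2, kn, gcm and Stat92E. The optimal list is the set of 3845 peaks left after the authors' thresholding for irreproducibility between replicates, and it held exactly the strongest pooled peaks. Of these, 394 had a summit within 100 bp in only 2 replicates and 40 in only 1. The pooled list was deposited as peaks and background, the input to that thresholding, so an entry found in it alone may be background. The members' share of 60% (95% Wilson interval 31.3% to 83.2%, counting error only) stood beside 46.2% of all protein-coding genes. It also stood beside 54.3% of the 6212 genes between the shortest and the longest member in length, so the interval held both backgrounds. The members were long, with a median length of 17461.5 bp against 2166 bp for all protein-coding genes, which widens the stretch searched. The median of the 6212 genes was 4699 bp, so that background was not matched to the members' lengths either. The 4 genes without an optimal peak were srp, lz, Pvr and hop. An optimal summit within 500 bp of the gene's own transcription start site was present at 2 members, dome and Stat92E, which is 20% (5.67% to 51.0%) against 19.7% of all protein-coding genes. In 3 members, zfh1, dome and Stat92E, an optimal summit in the window had a start site of that gene as its nearest, which is 30% (10.8% to 60.3%) against 18.1%. At gcm, gcm2 and kn each optimal peak lay nearest to the start site of a neighbouring gene.

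The sequences under the peaks nearest to the members' own start sites, and under the gcm peak for contrast, are given on the plus strand of dm6 from the RefSeq genome of the same assembly. The whole zfh1 intron peak, chr3R:30781647-30781894, is shown because it was the strongest at any of the 10 genes, and capitals mark 11 bases centred on the summit.
zfh1 intron peak: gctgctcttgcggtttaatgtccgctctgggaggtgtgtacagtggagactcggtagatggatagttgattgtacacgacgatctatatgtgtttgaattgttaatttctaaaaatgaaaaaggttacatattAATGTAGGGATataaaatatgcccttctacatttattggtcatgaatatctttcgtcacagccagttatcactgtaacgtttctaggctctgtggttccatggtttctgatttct
The 50 bases on each side of the zfh1 upstream summit, chr3R:30761416-30761516, show the only intergenic optimal peak of the members.
zfh1 upstream peak: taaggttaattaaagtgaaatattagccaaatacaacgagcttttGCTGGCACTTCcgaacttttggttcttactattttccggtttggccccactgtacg
The 289 bases between the divergent start sites of dome and Ubqn, chrX:19683519-19683807, show where the receptor gene's peak sits.
dome and Ubqn: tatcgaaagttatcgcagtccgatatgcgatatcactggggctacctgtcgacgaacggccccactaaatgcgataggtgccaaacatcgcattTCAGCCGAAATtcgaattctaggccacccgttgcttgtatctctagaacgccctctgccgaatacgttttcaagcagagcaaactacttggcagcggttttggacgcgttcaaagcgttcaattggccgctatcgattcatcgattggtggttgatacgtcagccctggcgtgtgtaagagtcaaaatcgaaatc
The 50 bases on each side of the summit near gcm, chr2L:9576812-9576912, lie beside the start site of Mtpalpha.
gcm and Mtpalpha: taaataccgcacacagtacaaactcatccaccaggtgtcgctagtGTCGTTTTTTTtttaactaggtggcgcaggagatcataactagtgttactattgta
In the 29 bases around the Stat92E summit, chr3R:20550744-20550772, all of them 5' UTR, capitals mark the forkhead word instead.
Stat92E: acaacactgtgTAAACAcacacggctggc

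In a window of 50 bases on each side, the zfh1 intron summit was 25.7% G and C, below the middle range of all optimal windows, whose quartiles were 30.7% and 43.6% around a median of 36.6%. The dome window was 51.5%, above that range, and the zfh1 upstream and gcm windows were 39.6% and 40.6%, inside it. In the same windows 8 consensus words were searched on both strands. The forkhead word TAAACA was in 2 of the 8 windows, 25% (7.15% to 59.1%), against 13.4% of all 3845 optimal windows. These were the Stat92E window, where the word began 3 bp before the summit, and the window of the stronger kn peak, which held 2 copies. The other words were in none of the 8 windows, where an interval for a count of 0 reaches 32.4%. Over all optimal windows GACGC, which other forkhead proteins are known to bind, was in 6.58%. The word of STAT proteins, TTCNNNGAA, was in 3.33%. The word of blood GATA factors such as Serpent, AGATAA, was in 6.40%. The Runx word of Lozenge, TGTGGT, was in 4.55%. Of words tied to open chromatin and promoters, CAGGTAG of Zelda was in 0.468%, GAGAGA of the protein Trl in 4.21% and TATCGATA of DREF in 3.09%. Each of these shares was under the upper end of the interval for 0 of 8, so 8 windows could not show that a word was rarer at these genes, and a matching word is a description and not a binding site. Outside these windows the longer stretches shown held 3 more matches. The zfh1 intron peak held the Runx word beginning 85 bp after the summit. Between dome and Ubqn, GACGC began 97 bp after the summit and the Zelda word, on the minus strand, lay 58 bp before it.

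The receptor gene dome (chrX:19676061-19683518, minus strand) had 1 optimal peak, chrX:19683408-19683827, with a signal of 193 and rank 1723 of 3845. Signal is the authors' own value for each peak, whose scale is not given in the sources used here. The summit lay 100 bp upstream of the dome start site and 190 bp upstream of that of Ubqn, the ubiquilin gene on the opposite strand, so position alone does not assign it to either gene. The peak had signals of 65.6, 56.6 and 62.0 in replicates 1, 2 and 3. Divided by each replicate's median over matched optimal peaks, a scale on which 1 is a typical optimal peak, these were 0.878, 0.975 and 1.14, or 0.997 ± 0.132 (SD, n = 3). The peak was thus close to a typical optimal peak in each replicate. The other 6 pooled peaks of dome were weaker, at most 55.8, and 1 of them, with a signal of 53.7, had its summit 9 bp from the Ubqn start site.

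The kinase gene hop (chrX:11360930-11368098, minus strand) had no optimal peak. Its strongest pooled peak had a signal of 94.2 and rank 4944, 95 bp upstream of the neighbouring gene Pa1 and beyond the 3' end of hop. It was matched in all 3 replicates, with signals of 41.9, 19.8 and 39.9 and relative signals of 0.561, 0.341 and 0.732 (0.545 ± 0.196, SD, n = 3). At hop's own start site a weaker pooled peak of 67.1, 159 bp upstream, was found in replicates 1 and 3 with signals of 16.1 and 37.3 and had no match in replicate 2. The interval of that peak also overlapped the neighbouring gene Tim8. With 5 pooled peaks and 2.91 per 10 kb, hop had the lowest density of the 10 genes, just below kn at 2.93.

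The transcription factor gene Stat92E (chr3R:20535323-20552311, minus strand) had the weakest of the members' optimal peaks, chr3R:20550548-20550967, with a signal of 122 and rank 3387. Its summit was 349 bp downstream of an internal start site of Stat92E, inside a 5' UTR of the gene. The replicate signals were 28.1, 24.6 and 55.9, and their ranks within the replicate lists were 8032, 9524 and 1838. The peak was thus weak in replicates 1 and 2 and of ordinary strength in replicate 3. Relative signals were 0.376, 0.423 and 1.03, or 0.609 ± 0.363 (SD, n = 3), and without replicate 3 the mean was 0.3998. A pooled peak 981 bp downstream of the same start site, in an intron, had a signal of 100.02 and, in contrast, 53.2, 38.2 and 17.2 in replicates 1, 2 and 3. Another of 111, in a 5' UTR of the neighbouring mitochondrial carrier gene DPCoAC, had 55.7, 33.7 and 12.8 and ranked 3908, just outside the optimal list. In both of these replicate 3 was the lowest, and in the optimal peak it was the highest. The nearest optimal peak beyond the window, 287 at the DPCoAC promoter, lay 5405 bp from Stat92E.

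**Figure D1:**
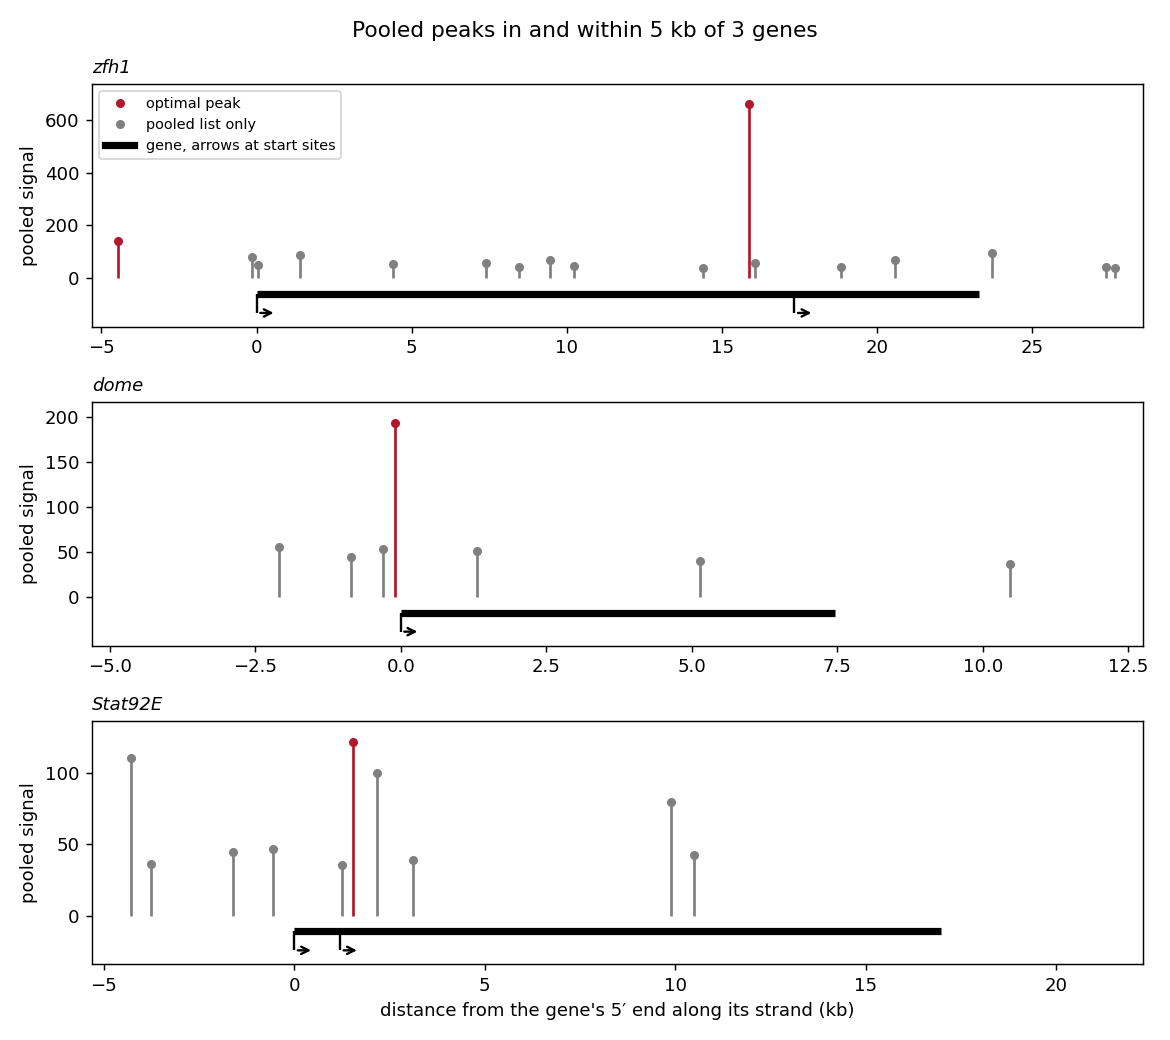
Pooled peaks along zfh1, dome and Stat92E, as the authors' peak signal against distance in kb, with optimal peaks and start sites marked. The zfh1 intron peak reached 659, the peak between dome and Ubqn 193 and the Stat92E peak 122.

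The strongest peak at any of the 10 genes lay in an intron of zfh1 (gene chr3R:30765926-30789202, plus strand), at chr3R:30781647-30781894, with a signal of 659 and rank 149 of the list. It was 248 bp wide, against a median of 420 bp for optimal peaks, and its summit was 1473 bp upstream of the internal start site of the gene, and it also overlapped the antisense gene asRNA:CR45189. The replicate signals were 293, 160 and 194, with ranks of 120, 284 and 138 among 30000 peaks each. Relative signals were 3.93, 2.76 and 3.57, or 3.42 ± 0.596 (SD, n = 3). The summits of the 3 replicates lay 0, 7 and 8 bp from the pooled summit, the tightest placement among the members' 8 optimal peaks. Among the 6441 protein-coding genes with an optimal peak, 462 (7.17%) had a stronger strongest peak than zfh1. A second optimal peak, chr3R:30761256-30761675, stood 4460 bp upstream of the gene with a signal of 143 and rank 2752. It had signals of 71.5, 40.6 and 40.3 and relative signals of 0.957, 0.699 and 0.740 (0.799 ± 0.138, SD, n = 3), and no other annotated start site was nearer. The strongest of its weaker peaks, 96.9, was in the 3' UTR of the neighbouring kinase gene wts and was matched in all 3 replicates with 43.1, 27.0 and 25.5. At the distal zfh1 start site itself the strongest pooled peak was 80.0, 140 bp upstream, matched in replicate 1 alone with a signal of 34.7. An overlapping pooled peak of 51.5, 60 bp downstream, was matched in replicates 2 and 3 with 18.0 and 32.4. Each replicate thus had a summit near this start site. The gene had 17 pooled peaks, 5.11 per 10 kb, the highest number and density of the 10 genes, and 12 of them had a zfh1 start site as their nearest. The pooled list includes background, and the authors' −log10 q was as low as 0.0491 among these peaks, so this is not a density of binding.

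The GATA factor gene srp (chr3R:15986152-16004085, plus strand) had no optimal peak, and 12 pooled peaks of low signal. The strongest, intergenic and 1470 bp upstream of the first srp start site, had a signal of 81.3 and rank 6157. It was matched in replicates 1 and 2 with signals of 35.2 and 35.8 and had no match in replicate 3. An overlapping pooled peak of 34.7 was matched in replicates 2 and 3 with 35.8 and 16.0. Its replicate 2 match, at rank 3884, was the same replicate peak as that of the strongest. Of the 12, 3 were matched in all 3 replicates. The strongest of these, 71.1 at rank 7668, lay beyond the 3' end of srp in an exon of lncRNA:CR42839, with signals of 40.4, 24.5 and 15.9. The others were inside srp, a coding peak of 66.2 and an intron peak of 65.9. Within 500 bp of a start site of srp the strongest pooled peak had a signal of 36.1, near the bottom of the pooled list at rank 27395. The nearest optimal peak, in an intron of Hel89B, lay 11710 bp away with a signal of 269.

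The crystal cell gene lz (chrX:9284649-9303636, plus strand) had no optimal peak and no pooled summit within 500 bp of its start site. Its strongest pooled peak, 87.7 at rank 5495, was 52 bp from the start site of c11.1 and 1584 bp upstream of lz, with signals of 37.1 in replicate 1 and 44.3 in replicate 3 and no match in replicate 2. None of the 10 pooled peaks at lz was by itself matched in all 3 replicates. Overlapping pooled peaks of 68.5 and 66.8 inside the gene were matched in replicates 2 and 3 and in replicates 1 and 2, respectively. The replicates differed here in number too, with 2, 8 and 6 peaks in replicates 1, 2 and 3.

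The paralogues gcm and gcm2, at chr2L:9579498-9581745 on the minus strand and chr2L:9608562-9612706 on the plus strand, each had 1 optimal peak, and in neither case at their own start site. The gcm peak, chr2L:9576652-9577071, had a signal of 129 and rank 3142, 93 bp upstream of Mtpalpha, which encodes a subunit of the mitochondrial trifunctional protein, and 4883 bp from the gcm start site. Its replicate signals were 54.9, 32.2 and 37.5, and the relative signals of 0.734, 0.554 and 0.688 were all below 1 (0.659 ± 0.0936, SD, n = 3). The gcm2 peak, chr2L:9616629-9617048, had a signal of 157 and rank 2370, 3 bp from the start site of the glucuronyltransferase gene GlcAT-S and 8277 bp from that of gcm2. Its replicate signals were 64.1, 61.8 and 39.0, with relative signals of 0.857, 1.06 and 0.715 (0.878 ± 0.175, SD, n = 3). At their own start sites both genes had a weaker pooled peak, each found in 2 of 3 replicates. That of gcm had a signal of 62.7, 289 bp upstream, and that of gcm2 a signal of 46.5, 11 bp upstream. The strongest peak outside the optimal list lay elsewhere at both genes. At gcm it was a coding peak of 70.0 in Mtpalpha, rank 7889, with signals of 28.1 and 28.2 in replicates 1 and 2 and no match in replicate 3. At gcm2 it was a peak of 70.4 in the gene's own intron, rank 7797, 954 bp downstream of the start site, with signals of 38.5 and 15.2 in replicates 1 and 3 and no match in replicate 2.

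The longest member, kn (chr2R:14772650-14807061, minus strand), had 2 optimal peaks, both beyond its 3' end at the start sites of BEAF-32, which encodes an insulator protein. The first, chr2R:14770226-14770645, had a signal of 151 and rank 2519, 33 bp upstream of a BEAF-32 start site and 26591 bp from the nearest kn start site. Its signals of 66.9, 69.5 and 28.1 put replicate 3 well below the other two, with ranks of 2276, 1396 and 6433, and relative signals averaged 0.869 ± 0.341 (SD, n = 3). The second, chr2R:14771068-14771487, had a signal of 137 and rank 2910, with replicate signals of 48.3, 37.9 and 50.3, and lay 23 bp from another BEAF-32 start site and 17 bp from that of the antisense gene asRNA:CR42254. Inside kn the strongest pooled peak was an intron peak of 109 at rank 3979, 3659 bp downstream of the distal start site. Among the members' peaks outside the optimal list it was weaker only than the Stat92E peak of 111, and it had a match in replicate 3 alone, with a signal of 30.4. An overlapping pooled peak of 89.0, 3437 bp downstream of the same start site, was matched in replicates 2 and 3 with 27.3 and 18.4. At the kn start sites the strongest pooled peak was 63.4, 140 bp upstream of an internal site and found in replicates 1 and 2.

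The receptor tyrosine kinase gene Pvr (chr2L:8220980-8239878, minus strand) had no optimal peak and no pooled summit within 500 bp of a start site. Its strongest pooled peaks were intronic, on both sides of the most downstream of its 3 start sites, at position 8230677. The strongest, 83.8 at rank 5883, was 2011 bp upstream of that site and had signals of 32.4 in replicate 1 and 30.6 in replicate 3. The next, 81.6, lay 832 bp downstream of it with signals of 46.2 in replicate 2 and 16.2 in replicate 3. A weaker peak of 74.0, at 1356 bp, was the strongest matched in all 3 replicates, with 31.3, 25.02 and 26.9. The nearest optimal peak, 7953 bp away at the start site of CG8360, had a signal of 1366 and rank 31, the strongest among the nearest optimal peaks outside the members' windows.

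**Figure D2:**
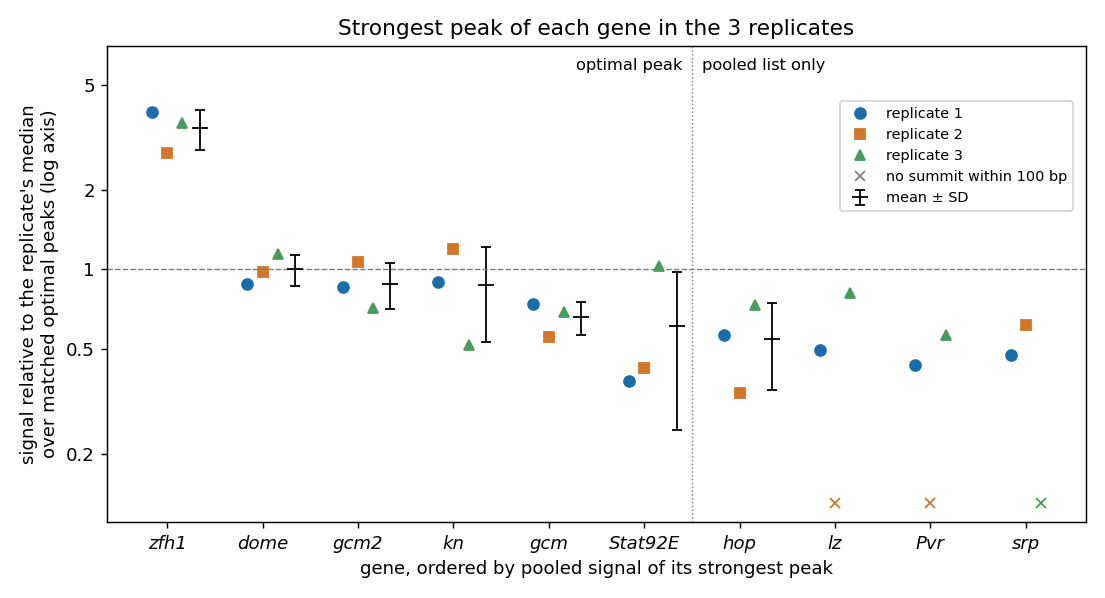
Signal of each gene's strongest pooled peak in the 3 replicates, divided by that replicate's median over matched optimal peaks, on a log axis, with the mean and SD where all 3 replicates matched. The zfh1 peak stood between 2.76 and 3.93 and the other 5 genes with an optimal peak between 0.376 and 1.196.

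Ordered by the mean relative signal of the strongest optimal peak, the genes ran zfh1, dome, gcm2, kn, gcm and Stat92E. Between zfh1 and dome the replicate ranges did not overlap, with 2.76 as the lowest zfh1 value and 1.14 as the highest dome value. Within each replicate zfh1 was 4.38, 2.31 and 3.13 times the highest of the other 5 genes. Every later pair of neighbours overlapped. Of the 10 pairs among dome, gcm2, kn, gcm and Stat92E, 9 overlapped, and in the remaining pair the lowest dome value, 0.878, lay above the highest gcm value, 0.734. The order of these 5 means changed when any 1 replicate was left out. Against all 6441 protein-coding genes with an optimal peak, the share with a stronger strongest peak was 57.9% for dome, 73.0% for gcm2, 76.1% for kn, 87.7% for gcm and 91.8% for Stat92E. These 5 genes were thus in the weaker part of that distribution. The median signal of the members' 8 optimal peaks was 147 (range 122 to 659), against 181 for all optimal peaks (112 to 3722). No test was made, since there was no second condition and the members were chosen by name.

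**Figure D3:**
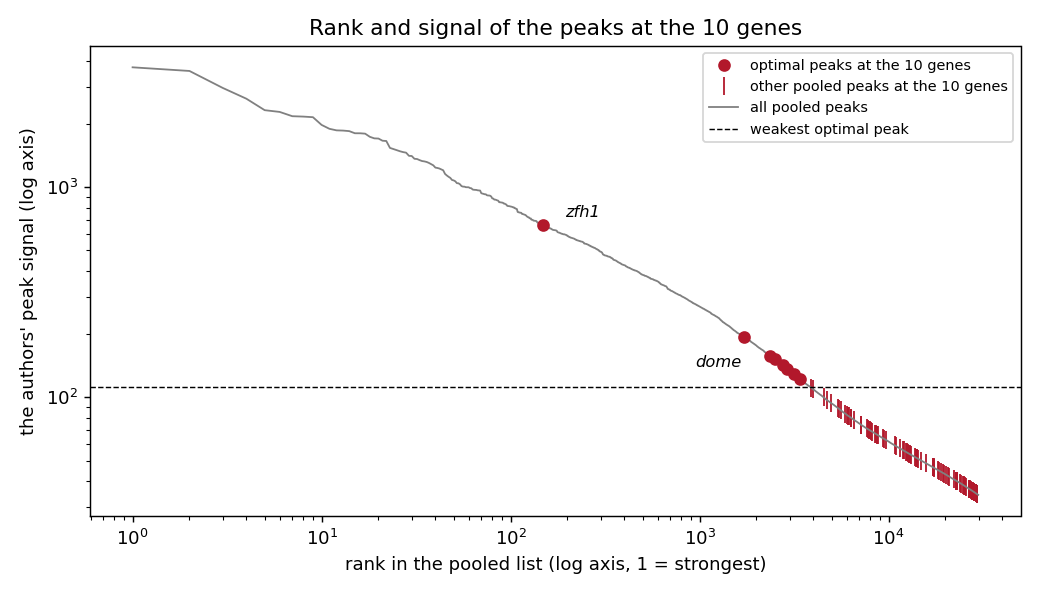
The authors' signal of every pooled peak at the 10 genes against its rank in the pooled list, both on log axes, over the curve of all 29812 pooled peaks. The zfh1 intron peak at rank 149 stood apart from the other 7 optimal peaks, which lay between ranks 1723 and 3387.

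All 8 optimal peaks of the members had a summit within 100 bp in all 3 replicate lists (100%, interval 67.6% to 100%), against 88.7% of all 3845 optimal peaks. At 4 of the 8 the replicate furthest from the pooled summit was 51 to 59 bp away, and at the other 4 it was 8 to 24 bp away. The replicate lists also held peaks in the windows with no pooled summit within 100 bp. At gcm2 a replicate 3 peak of this kind, 40.9, was stronger than the match of the optimal peak, 38.96. At kn those of 50.2 in replicate 1 and 39.2 in replicate 2 were stronger than the matches of its second optimal peak, 48.3 and 37.9. The members had 94 pooled peaks in all, and 86 of these were outside the optimal list, with a median signal of 51.4 against 47.0 for all such peaks. Of the 86, 13 (15.1%) were matched in all 3 replicates, 38 in 2, 27 in 1 and 8 in none. Over all 25967 such peaks 13.4% were matched in all 3, a share inside the members' interval of 9.05% to 24.2%. Per 10 kb of window the members had 0.318 optimal and 3.74 pooled peaks, against 0.453 and 3.09 for all protein-coding genes. Genes between the shortest and the longest member in length, mostly shorter than the members, had 0.524 and 3.49. The optimal list therefore held 8 of the members' 94 pooled peaks (8.51%), against 14.7% and 15.0% of the pooled peaks of those 2 backgrounds. This share rests on 8 peaks, no interval was computed for it, and the difference was not tested. Because neighbouring genes share peaks, a peak is counted for each gene it falls near in these backgrounds.

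**Figure D4:**
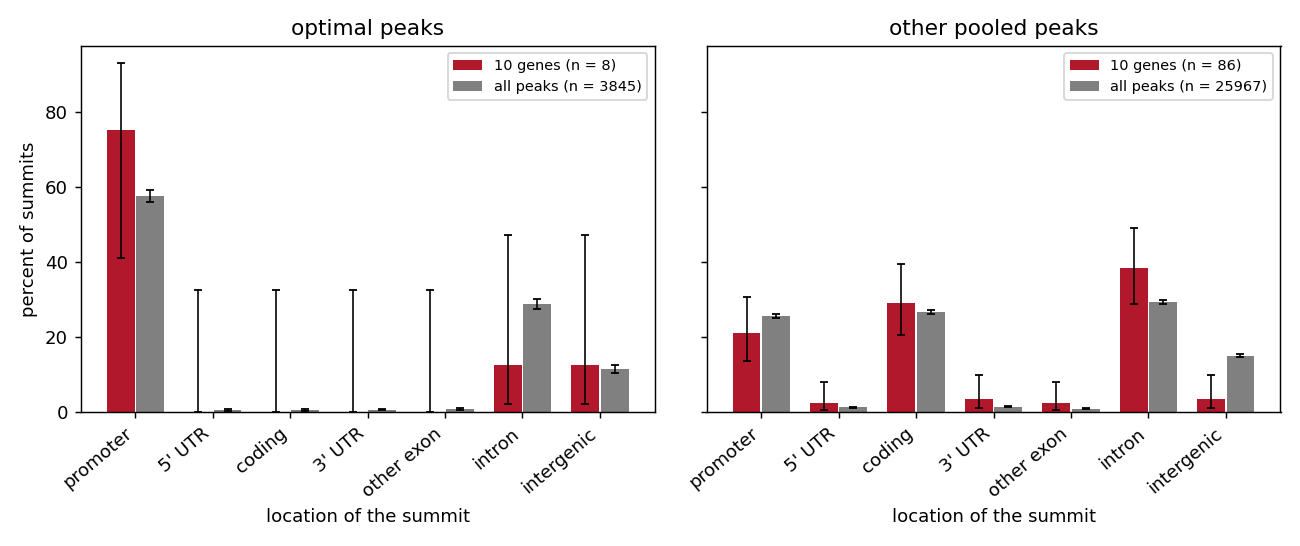
Percent of peaks by class of the summit's position, at the 10 genes and in the whole lists, with 95% Wilson intervals. Of the members' 8 optimal peaks 75% were promoter peaks, against 57.5% of all optimal peaks, and the members' interval of 40.9% to 92.9% held the share of the whole list.

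By class, 6 of the 8 optimal peaks were promoter peaks, within 500 bp of any annotated start site, 1 was in an intron and 1 intergenic. Of the 6, only those at dome and Stat92E lay at a member's own start site. Among the 86 weaker peaks 33 (38.4%, interval 28.8% to 48.9%) were in introns, against 29.4% of all such peaks, and 25 (29.1%) were coding, against 26.6%. Promoters held 18 (20.9%, interval 13.7% to 30.7%), against 25.6%, and intergenic sequence 3 (3.49%, interval 1.19% to 9.76%), against 15.0%. A window that consists of a gene and 5 kb on each side holds more gene and less intergenic sequence than the genome, so the members' peaks and the whole list were not drawn from the same mix of sequence. On the relaxed pooled list 8 of the 10 genes, all except lz and Pvr, had a summit within 500 bp of an own start site. This share of 80% (interval 49.0% to 94.3%) stood against 52.1% of all protein-coding genes, which lay inside the interval. At 6 of these 8 that peak was outside the optimal list, with signals from 36.1 to 80.0. The authors' −log10 q of these 6 ran from 0.0367 at srp to 1.26 at zfh1, against at least 2.655 over the optimal list. The pooled list includes background, so these 6 summits do not by themselves show a peak at the start site. The members had from 1 start site, as at lz, to 4, at srp, and the background was not matched for the number of start sites.

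Of 10 other genes of the JAK/STAT pathway, 7 had an optimal peak by the same rule (70%, interval 39.7% to 89.2%), against 46.2% of all protein-coding genes, which lay inside the interval. The median of their strongest signals was 401. Among the ligands upd2 had a peak of 152 and upd1 and upd3 had none. The receptor-like gene eye transformer (et), whose product lacks signalling activity and which lies next to dome, had a peak of 926 in an intron of its other neighbour, the pentose phosphate pathway gene Zw, at rank 73, with relative signals of 5.25, 5.12 and 4.34 (4.90 ± 0.492, SD, n = 3). That peak lay 7444 bp from dome, outside its window, and was several times stronger in every replicate than the peak between dome and Ubqn. Among inhibitors Su(var)2-10, which encodes the PIAS protein, had a peak of 1501, 60 bp from the start site of its neighbour GstE13. The inhibitor gene Socs36E had 5 peaks in its window. The strongest of these, 401, overlapped the gene and lay 417 bp from the start site of lncRNA:CR44478. The phosphatase gene Ptp61F, another inhibitor, had 6 up to 276. The repressor gene ken had 3 peaks up to 409, the target gene chinmo had 2 up to 177 and wdp had none.

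Of 27 other genes of hemocytes, the lymph gland and gcm-dependent glia, 17 had an optimal peak (63.0%, interval 44.2% to 78.5%), against 46.2% of all protein-coding genes, which lay inside the interval. The median of their strongest signals was 261. The list's strongest was the first of the whole optimal list, a peak of 3722 in an intron of u-shaped (ush), the Friend-of-GATA partner of srp. Its window held 14 optimal peaks, and the strongest had relative signals of 20.8, 19.8 and 19.1 (19.9 ± 0.889, SD, n = 3), although the nearest start site, 1371 bp away, belonged to cbt. The partner of srp thus had the strongest peak of the list, and srp itself had none in its window. Of the ligands of Pvr, Pvf3 had 5 peaks up to 319, Pvf1 had 2 up to 261 with the strongest at the promoter of htk, and Pvf2 had none. The plasmatocyte genes with a peak included SPARC (550, at the promoter of ball), Hml (498, in an intron of CG8745) and vkg (257, at the promoter of Rtnl1). The others were Sr-CI (248, intergenic and nearest to the start site of Sr-CIII) and Pxn (113, at the promoter of MEP-1 and unmatched in replicate 2). The plasmatocyte genes He, NimC1, eater, crq, drpr and Col4a1 had none. Among prophenoloxidase genes of crystal cells and lamellocytes PPO1 had a peak of 329 in an intron of Elk and PPO3 of 191 nearest to l(2)k09913, and PPO2 had none. The lymph gland genes N, Antp and hth had strongest peaks of 566, 300 and 152, and odd and Ser had none. Among the glial targets of gcm, pnt had a peak of 342, loco of 204, ttk of 159 and repo of 113, the last of these at the promoter of CG7156. The ttk peak was unmatched in replicate 2 and the repo peak in replicate 3. In this list 10 of the 27 genes had an optimal summit nearest to an own start site (37.0%, interval 21.5% to 55.8%), and in the JAK/STAT list 6 of 10 (60%, interval 31.3% to 83.2%), against 18.1% of all protein-coding genes. Both lists were described only, with no test, and the background was not matched to the lengths of their genes. Both were also chosen with earlier results of these data known, so their shares cannot show an enrichment over the background.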

How the data were processed

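Peaks came from ChIP-seq of Jumeau-eGFP in 3 biological replicates of 1 group. Per the deposited readme files, each replicate and the pooled replicates had a relaxed list called with a control alignment, and thresholding by the irreproducible discovery rate gave the optimal list. Peak caller and depth, not given in the sources used here, remained unknown. The signal and −log10 q value of each peak are the authors' deposited values, and q was used for no selection. Lists in dm3 were not used here. The 3845 optimal peaks were exactly the pooled peaks with a signal of 112.0 or more, so both lists give 1 rank.

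A summit was assigned to a gene when inside it or within 5 kb (Ensembl release 115, BDGP6.54, 23581 start sites). Classes were promoter, then 5' UTR, coding, 3' UTR, other exon, intron and intergenic. Replicate summits within 100 bp matched, the strongest taken, and were divided by the replicate's median over matched optimal peaks, 74.8, 58.1 and 54.5. Wilson intervals (95%) treat peaks or genes as independent. Matching was checked on simulated peaks (Python 3.11.15, pandas 2.3.3, statsmodels 0.14.6).

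The members, lists and words were chosen with earlier results of these data known. By rule, all members, their optimal peaks, the strongest weaker pooled peak of each and listed genes with an optimal peak are named. Other weaker peaks were picked after their values were seen. Window, list, matching, scaling, promoter width and left-out replicates were varied.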

Additional observations from a re-analysis of the deposited data

How the results depend on the processing

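The window and the list set the counts. With summits inside the gene only, 2 members had an optimal peak (2 peaks, against 10.9% of all protein-coding genes). Within 2 kb there were 4 members and 4 peaks (33.4%), and within 10 kb 8 members and 18 peaks (59.8%). Optimal peaks above their median signal left 2 members with 2 peaks (29.4%), and the whole relaxed pooled list gave 10 members and 94 peaks (91.4%). The ratio of the members' median signal to that of all optimal peaks was 0.814, and it was 0.914 with 2 kb and 0.969 with 10 kb. With summits matched within 50 bp, 4 of the 8 peaks were found in all 3 replicates, which follows from the closer limit. Counting only start sites of the members, 2 of the 8 were promoter peaks. Leaving out each replicate in turn, all 8 peaks and 6 genes remained matched. Dividing by the median of the whole replicate list raised the relative signals, to 11.2 for zfh1 and 1.89 for Stat92E, by the construction of that scale. That scale kept the order of the 6 means, and leaving out any 1 replicate changed it below zfh1. Without replicate 1, Stat92E (0.725) was above gcm (0.621). Without replicate 2, gcm (0.711) was above kn (0.706). Without replicate 3, kn (1.046) and gcm2 (0.960) were above dome (0.926). No paired analysis was possible because there was 1 group. Depth is unknown, so a missing peak is no evidence of absent protein.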
